A study of Homo sapiens with 24 samples.

Results

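The genes described here are the translation initiation factors (symbols beginning EIF1 to EIF6) and the translation elongation factors (symbols beginning EEF1 or EEF2) of Huh7 cells, a human hepatoma line. Protein-coding genes were taken by symbol from GENCODE release 29, and the eIF2 kinases, whose symbols begin with EIF2AK, were left out of the set. This gave 65 genes among the 58024 gene rows of the expression table. RNA was measured by sequencing in wild-type (WT) cells and in cells with a knockout (KO) of ABHD6, a lipid hydrolase that cleaves monoacylglycerol. Cells of each genotype were harvested in basal medium (0 h), or 24 h or 48 h into exposure to the saturated fatty acid palmitic acid at 800 µM. Each of these 6 groups has 4 libraries. Separate cultures and the number of knockout clones are not stated in the labels, and p-values therefore describe only the spread between the libraries at hand, which may be technical. No untreated cells were harvested at 24 h or 48 h, so the effect of palmitic acid and that of time in culture cannot be told apart.

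Protein synthesis begins when eIF2 carries the initiator tRNA to the small ribosomal subunit, on which eIF1, eIF1A, eIF3 and eIF5 assemble, and when the cap-binding complex eIF4F brings in the mRNA. The exchange factor eIF2B recharges eIF2 with GTP, and phosphorylation of the alpha subunit of eIF2 blocks that exchange in stressed cells. The elongation factors eEF1A and eEF2 then deliver aminoacyl-tRNA and move the ribosome along. Hepatocytes make large amounts of secreted protein, and saturated fatty acids are known to stress their endoplasmic reticulum.

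Values are FPKM, fragments per kilobase of transcript scaled to the mapped fragments of the library, as the authors deposited them. The number of fragments behind a library, estimated from the smallest steps of its values, was 389611 to 713570, so 1 fragment on a 2 kb transcript was worth 0.701 to 1.28 FPKM. Fewer cells and less RNA per cell cannot be told apart in such values. The library kit keeps the strand of the RNA, but how the counting treated strand is not given. Antisense genes, as annotated, took 44.0% to 58.1% of each library's summed FPKM. With the opposite setting, the FPKM of a translation factor would hold stray reads or reads of a gene on the other strand instead of its own mRNA, so every level and change below is one of the deposited FPKM. The targeted gene itself could not check the genotype labels: ABHD6 was above 0 in 3 of 12 WT and 4 of 12 KO libraries, at 1.16 FPKM or less. Mitochondrially encoded genes, a sign of RNA quality, averaged 3.53% (WT) and 3.89% (KO) of the summed FPKM at 0 h and 11.1% (WT) and 13.8% (KO) at 48 h. All 10 hepatocyte markers examined passed the floor for testing, and their summed level was 835 to 2015 FPKM, against 0.653 to 34.0 FPKM for 6 markers of immune, stromal and endothelial cells. In WT libraries the hepatocyte sum was 1181 to 1380 FPKM at 0 h, 1058 to 1366 at 24 h and 1792 to 2015 at 48 h, and in KO libraries 1036 to 1138, 835 to 1098 and 1641 to 1881 FPKM, so the 48 h libraries lay above all others of their genotype. The markers did not all rise. From 0 h to 48 h mean APOA2 went from 112 to 455 FPKM in WT and from 129 to 601 FPKM in KO. Mean APOA1 went from 85.1 to 59.3 FPKM in WT and from 76.3 to 31.9 FPKM in KO. Of the 10 markers, 5 were called higher and 0 lower in WT at 48 h, and 3 higher and 1 lower in KO. The part of the hepatocyte sum in the changes below was not tested.

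Of the 65 factors, 56 reached the floor for testing, an average of 0.5 FPKM across the 24 libraries, and 40 were above 0 in every library. The median of the 56 means was 22.3 FPKM, against 4.45 FPKM over all 17252 genes tested. Together the 65 genes made up 0.236% ± 0.0160 of the summed FPKM of WT libraries and 0.236% ± 0.0250 of that of KO libraries at 0 h (SD, n = 4). That share was 0.290% ± 0.0238 and 0.287% ± 0.0198 at 24 h, and 0.286% ± 0.0261 and 0.302% ± 0.0225 at 48 h, in WT and KO respectively. The share is one of a total that itself moved. The antisense share of WT libraries was 57.0% at 0 h but 45.9% at 48 h, and that of KO libraries 57.2% but 44.6%. The summed level of the 65 factors for WT was 2603 ± 89.7 FPKM at 0 h, 2747 ± 178 at 24 h and 2519 ± 101 at 48 h, and for KO 2713 ± 253, 2724 ± 179 and 2585 ± 233 FPKM. The part of the antisense share in the higher share of the factors after 0 h was not tested.

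Per unit of length, the highest tested member was EEF2KMT, the methyltransferase of eEF2, with a mean of 376 FPKM over all libraries. It was followed among the named factors by EIF4B, which stimulates the helicase eIF4A (175 FPKM), and EIF5, the GTPase activator of eIF2 (152 FPKM). The lowest, median and highest means within each role were as follows. Start codon and 43S factors ran from 3.28 FPKM (EIF1AD) through 21.9 to 152 (EIF5), with 8 of 9 genes tested. Subunits of eIF2 and eIF2B ran from 3.10 FPKM (EIF2B3) through 16.6 to 78.7 (EIF2S1, the alpha subunit that is phosphorylated under stress), with 8 of 9 tested. Among eIF3, the scaffold of the small subunit, 13 of 14 subunits were tested and spanned 1.93 FPKM (EIF3C) through 22.9 to 69.6 (EIF3A). Members of eIF4F and its regulators had 14 of 16 tested and spanned 1.30 FPKM (EIF4EBP3) through 42.3 to 175 (EIF4B). The 3 tested genes of eIF5A and eIF6 lay at 1.39 FPKM (EIF5A2), 11.04 (EIF6) and 114 (EIF5A), the last a factor that relieves stalled ribosomes. Elongation factors, a group made by symbol and not by known function, had the highest median, 117 FPKM over 5 of 8 genes, from 6.62 (EEF1E1) to 138 (EEF1B2). Their 5 modifying enzymes were all tested and, EEF2KMT apart, were low, from 0.501 FPKM (EEF1AKMT1) with a median of 1.78 FPKM.

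**Figure D1:**
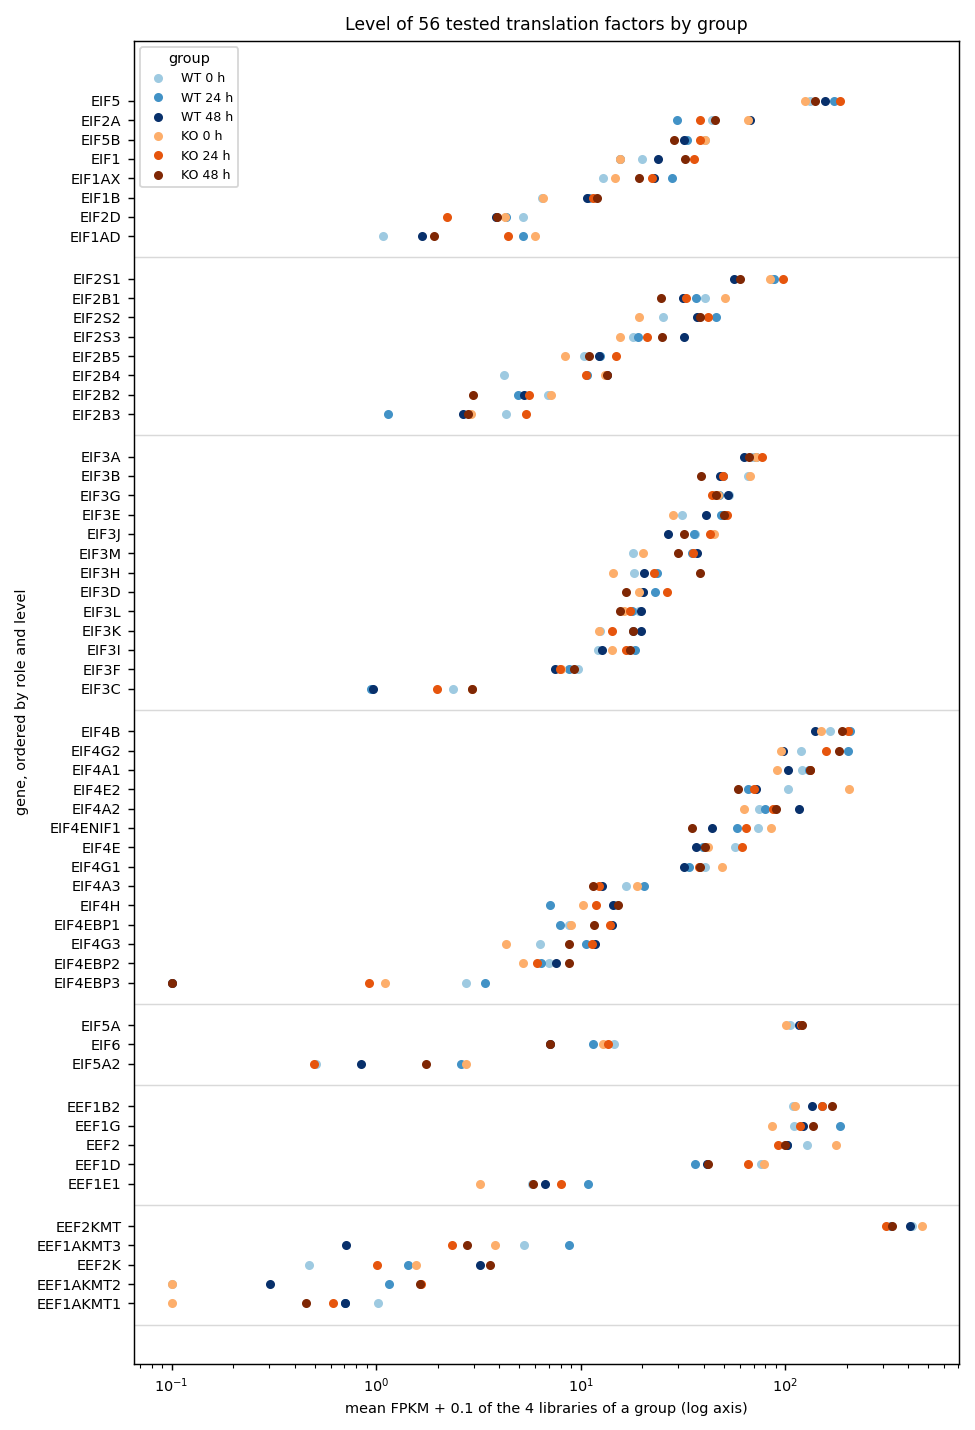
Mean FPKM plus 0.1 of each tested factor in the 6 groups (log axis; 1 point per group, each a mean of 4 libraries), ordered by role and then by level, with lines between the roles. The order of genes within a role changes between groups in places. EEF1G averages 186 FPKM in WT at 24 h, above EEF1B2 at 151 FPKM, and 85.8 FPKM in KO at 0 h, below EEF1B2 at 111 FPKM. EEF2KMT lies highest with a mean of 376 FPKM, and genes under 5 FPKM scatter most between groups.

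EEF1A1, the main carrier of aminoacyl-tRNA and one of the most abundant mRNAs of most cells, was listed at 0 in all 24 libraries. A 0 of this kind can be a failed estimate, so nothing is read from it, and 39 rows of its processed pseudogenes summed to 0 to 12.4 FPKM per library. EIF4E1B and EIF1AY were also listed at 0 throughout. The other genes under the floor were EIF2S3B, EIF4E3, EEF1A2, EEF1E1-BLOC1S5, EIF5AL1 and EIF3CL, with means of 0.331, 0.265, 0.191, 0.171, 0.131 and 0.0385 FPKM. Several of these are near-identical copies of a tested gene (EIF2S3B of EIF2S3, EIF5AL1 of EIF5A, EIF3CL of EIF3C), so how reads were split between copies is uncertain.

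Many mRNAs for the translation machinery begin with a terminal oligopyrimidine (TOP) tract, through which mTORC1 controls their translation. In the RefSeq promoter table (GRCh38.p14), 52 of the 65 genes had an entry. A TOP start was searched for as a C at the annotated start followed by at least 4 bases that are C or T, and it was present in 13 of the 52 genes (25%), against 5.14% of all 27305 genes in the table. The following 30-base stretches, 15 bases on each side of the start, are shown because they carry that shared feature, and the capitals mark the pyrimidine run that begins at the start.
EEF1A1: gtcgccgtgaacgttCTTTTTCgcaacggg
EEF1B2: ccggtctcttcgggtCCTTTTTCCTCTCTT
EEF2: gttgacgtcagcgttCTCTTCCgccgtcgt
EIF3F: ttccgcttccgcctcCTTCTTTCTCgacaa
EIF3M: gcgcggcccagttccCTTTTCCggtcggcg
EIF4A2: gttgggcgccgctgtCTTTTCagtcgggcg
EIF4B: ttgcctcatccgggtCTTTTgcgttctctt
These lie at chr6:73521018-73521047 on the minus strand (EEF1A1), chr2:206159880-206159909 on the plus strand (EEF1B2), chr19:3985449-3985478 on the minus strand (EEF2), chr11:7987322-7987351 on the plus strand (EIF3F), chr11:32583816-32583845 on the plus strand (EIF3M), chr3:186783562-186783591 on the plus strand (EIF4A2) and chr12:53006441-53006470 on the plus strand (EIF4B). The other 6 genes with a TOP start were EIF2A, EIF2D, EIF2S3, EIF2S3B, EIF3D and EIF3K. The 11 tested genes with a TOP start had a median level of 29.2 FPKM, against 15.2 FPKM for the 34 tested genes whose promoter entry has none. None of the 11 was called in the 6 comparisons between times, and limma gave 5 of them (EEF1B2, EEF2, EIF3M, EIF4A2 and EIF4B) an unadjusted p under 0.05 in at least 1. In each single comparison between times, 1248 to 3748 of all 17252 genes tested had such a p. How many had it in at least 1 was not counted.

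An E-box and an ATF4 element were searched on both strands of the promoter windows, which run from 250 bases before to 50 bases after each start. The E-box CACGTG, bound by MYC and related factors, was present in 12 of the 52 genes (23.1%), against 8.77% of all genes in the table. EIF4E, the cap-binding subunit and a known MYC target, held it at 2 places, starting 225 and 72 bases before the start (chr4:98929183-98929375, minus strand). It is shown with the single matches of EIF4B (chr12:53006417-53006455, plus strand) and of EEF2K, the kinase that inhibits eEF2 (chr16:22206202-22206241, plus strand), since these 3 are factors described below, and the capitals mark the motif.
EIF4E: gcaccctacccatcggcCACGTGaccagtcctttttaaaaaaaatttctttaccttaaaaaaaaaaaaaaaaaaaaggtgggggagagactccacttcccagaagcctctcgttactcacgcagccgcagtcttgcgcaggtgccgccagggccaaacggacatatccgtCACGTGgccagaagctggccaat
EIF4B: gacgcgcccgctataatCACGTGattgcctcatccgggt
EEF2K: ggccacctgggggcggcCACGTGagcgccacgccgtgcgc
TGATGNAA, a composite element recognised by ATF4, was found in 1 of the 52 genes (1.92%), EIF4E3, against 4.46% of all genes. A match in these windows is a description of their letters, and an absence says only that the letters are not there.

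In WT at 24 h, 2 of the 56 tested factors were called higher than at 0 h and none lower, where 4.06% of all genes tested were called (1.46% higher). In KO at 24 h, 3 were called higher and 1 lower, against 5.64% of all genes (2.13% higher, 3.51% lower). In KO at 48 h, 3 were called higher and 3 lower, against 9.82% of all genes (3.4% higher, 6.42% lower). None was called in WT at 48 h, against 6.79% of all genes. There limma gave 9 of the 56 factors an unadjusted p under 0.05, and 3239 of all 17252 genes. A call is an adjusted p under 0.05 over all genes tested. An unadjusted p under 0.05 is no call, and limma gave it to 2733 to 3748 of all 17252 genes in single comparisons with 0 h. How many genes had it in at least 1 comparison was not counted. On the log2(FPKM + 0.5) scale, the median change of the 56 factors at 24 h was 0.11 (WT) and 0.17 (KO), and at 48 h 0.00 (WT) and 0.18 (KO), beside medians of 0 over all genes. Over protein-coding genes with exons opposite another gene, the medians in these comparisons lay between -0.05 and -0.03. Over protein-coding genes without such exons they lay between 0.15 and 0.29. The 24 h and 48 h comparisons of a genotype share its 0 h libraries.

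Counting instead the factors whose 4 and 4 libraries did not overlap, 5 were higher and 2 lower in WT at 24 h, where 3.66% and 5.55% of all genes were. In WT at 48 h 3 were higher and 2 lower, against 5.01% and 6.69%. In KO, 5 were higher and 1 lower at 24 h, against 4.48% and 6.67%, and 5 higher and 3 lower at 48 h, against 6.25% and 8.97%. EIF2S2 was among the higher in all 4 comparisons, EIF3E and EIF4G2 in all but WT at 48 h. From 24 h to 48 h, EIF4H was higher in WT (1.91% of all genes) and EIF4B and EIF4G2 lower (1.87%), and EIF4ENIF1 was lower in KO (3.99%). Between genotypes, EIF2S2 and EIF4EBP2 were lower in every KO library at 0 h (1.31% of all genes) and EIF1 higher at 24 h (1.59%).

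The count depended on how libraries were scaled. Rescaling by median of ratios moved the median of all genes at 48 h to 0.12 in WT and 0.14 in KO. The KO calls at 48 h were then 7 higher and 2 lower, where 864 of all genes were higher and 779 lower. After quantile normalization they were 8 higher and 1 lower, where 747 of all genes were higher and 677 lower. Quantile normalization also gave 6 higher and none lower in KO at 24 h, with 463 and 357 over all genes. In WT at 48 h, where no factor was called without rescaling, 4 were called higher under median of ratios (622 higher and 525 lower over all genes) and 1 after quantile normalization (544 and 390). Without rescaling, all genes split into 587 higher and 1108 lower in KO at 48 h, 368 and 605 in KO at 24 h, and 443 and 728 in WT at 48 h.

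**Figure D2:**
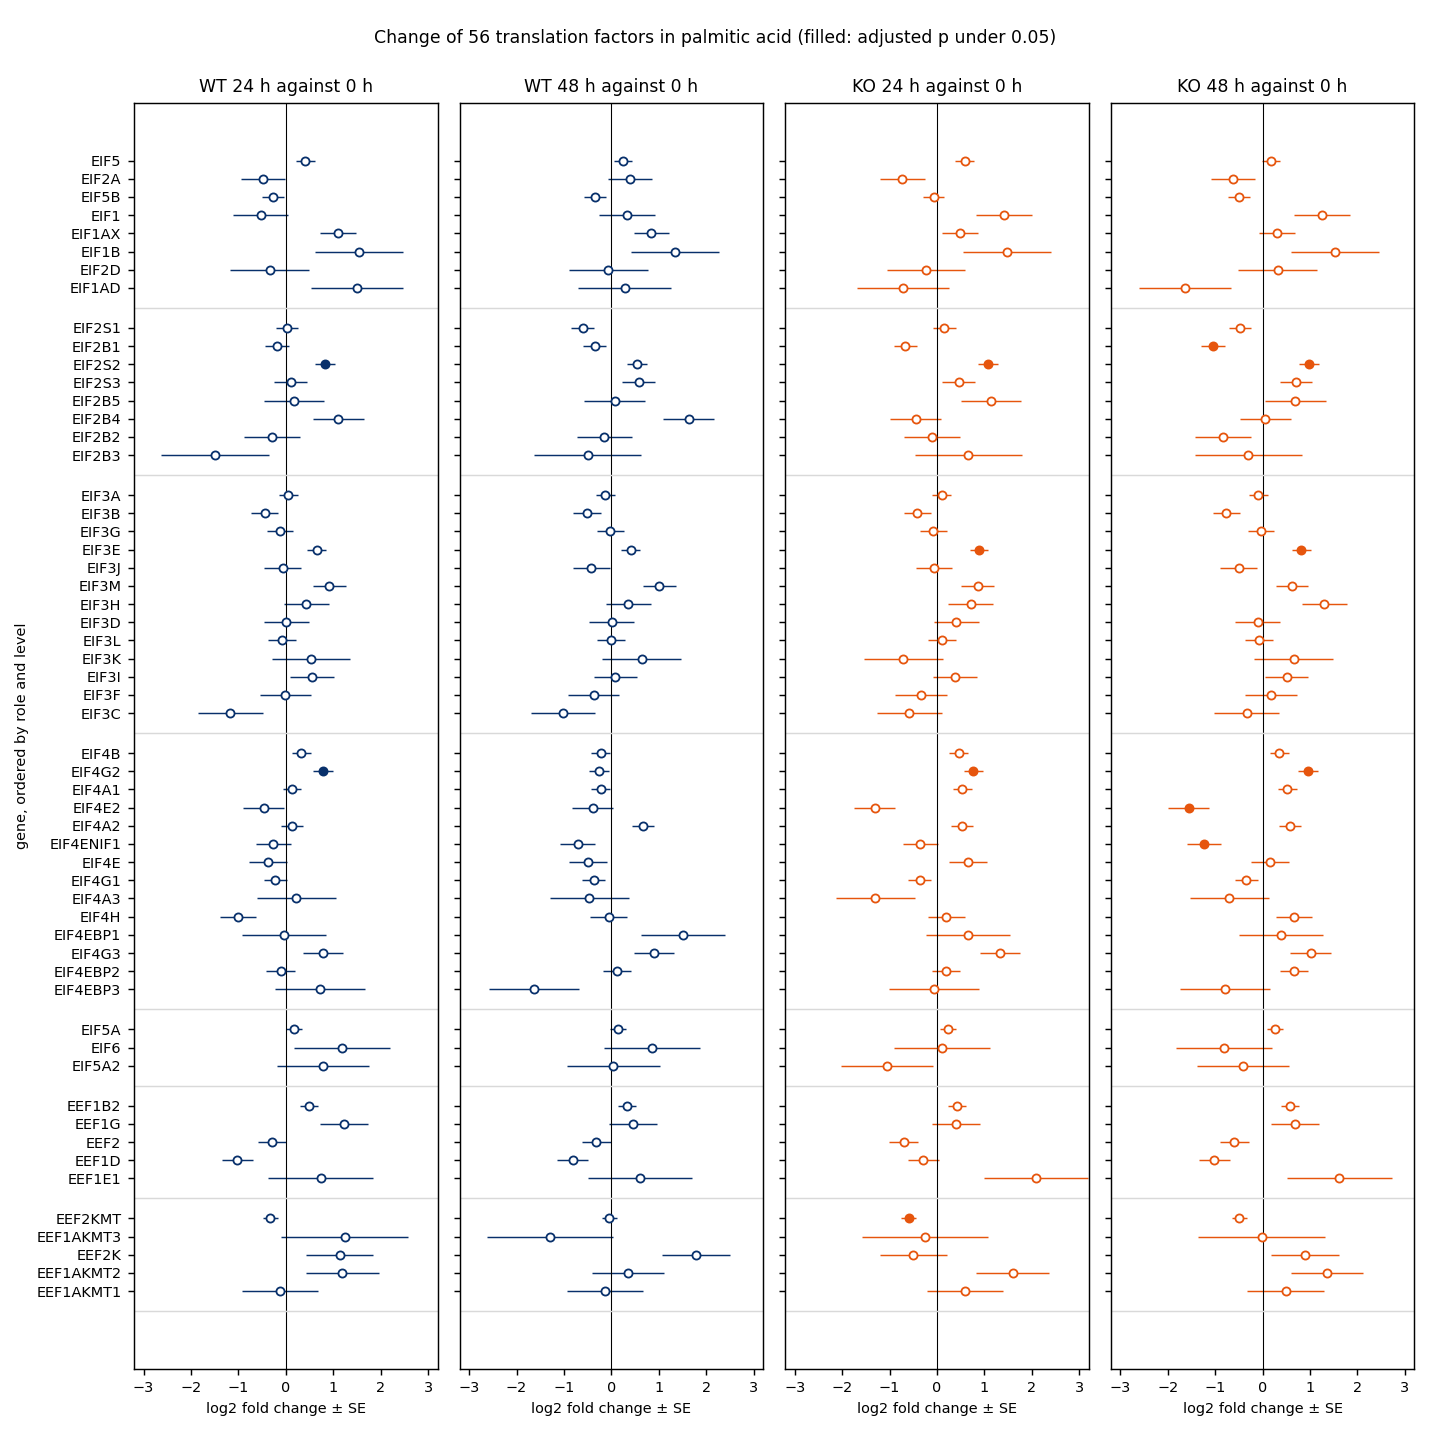
Log2 fold change with its standard error for each tested factor (rows, ordered by role and level) at 24 h and 48 h against 0 h in WT and KO, each estimate from 4 against 4 libraries; filled points are called at an adjusted p under 0.05. Filled points number 2, 0, 4 and 6 from left to right, and most of the open points lie within 1 log2 unit of 0.

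Of the trimer eIF2, the beta subunit EIF2S2 (chr20:34088298-34112332, minus strand) rose. Its level in the 4 WT libraries at 0 h was 24.8, 23.8, 25.6 and 26.4 FPKM, and at 24 h it was 52.7, 34.8, 57.5 and 38.3 FPKM. In KO it was 19.4, 16.4, 19.97 and 20.6 FPKM at 0 h, 40.8, 28.98, 48.5 and 48.2 FPKM at 24 h, and 41.1, 34.9, 35.4 and 41.7 FPKM at 48 h. Every library in palmitic acid was above every 0 h library of its genotype, WT at 48 h included (29.1, 38.0, 45.1 and 36.0 FPKM). The change was 0.82 ± 0.21 (log2 ± SE, adjusted p = 0.0249) in WT at 24 h, 1.08 ± 0.21 (adjusted p = 0.00217) in KO at 24 h and 0.99 ± 0.21 (adjusted p = 0.00264) in KO at 48 h. In WT at 48 h it was 0.53 ± 0.21 and missed the threshold (adjusted p = 0.145). No exon of another gene is annotated opposite EIF2S2. Both KO calls held in all 8 fits that left out 1 library, while the WT call at 24 h was lost in 4 of 8 (highest adjusted p = 0.0968, without WT 24 h replicate 2).

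EIF2S1, the alpha subunit, gave 101, 67.9, 84.0 and 92.6 FPKM in WT at 0 h and 51.1, 55.5, 66.3 and 52.3 FPKM at 48 h. Those groups did not overlap, but the difference of -0.61 ± 0.24 did not pass (adjusted p = 0.141). In KO the groups overlapped, at 112, 71.3, 76.5 and 75.9 FPKM at 0 h and 48.6, 61.1, 78.7 and 52.1 FPKM at 48 h (-0.48 ± 0.24, adjusted p = 0.242). At 24 h EIF2S1 differed from 0 h by 0.02 ± 0.24 in WT and 0.16 ± 0.24 in KO. EIF2S3, the gamma subunit, lay higher in every KO library at 48 h than at 0 h without being called.

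EIF2B1 (chr12:123620406-123633766, minus strand), the alpha subunit of the exchange factor eIF2B, which senses phosphorylated eIF2, fell in KO at 48 h. It was at 52.7, 39.5, 52.0 and 57.4 FPKM at 0 h, and at 24.3, 29.3, 27.7 and 16.8 FPKM at 48 h, with no overlap. The change was -1.04 ± 0.25 (adjusted p = 0.00682) and held in all 8 fits with 1 library left out. At 24 h 3 KO libraries were at 25.4 to 27.9 FPKM and 1 at 50.4 FPKM, and the difference of -0.67 ± 0.25 was not called (adjusted p = 0.127). WT went from 40.3 ± 4.31 FPKM at 0 h to 31.5 ± 4.33 at 48 h (SD, n = 4), a difference of -0.35 ± 0.25 (adjusted p = 0.485). Exons of DDX55 cover 536 bases of EIF2B1 on the opposite strand, and DDX55 differed by 0.86 ± 0.43 in KO at 48 h (adjusted p = 0.251), opposite in sign to EIF2B1. GTF2H3, which covers 28 bases there, differed by -0.93 ± 0.84 (adjusted p = 0.587), with the same sign. The other tested eIF2B subunits, EIF2B2 to EIF2B5, had no call in any comparison, and of these EIF2B4 had an unadjusted p under 0.05 in at least 1. Such a p was given by limma to 892 to 3748 of all 17252 genes in single comparisons between times or genotypes. The number with it in at least 1 was not counted.

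Within eIF3, EIF3E, a peripheral subunit encoded on chromosome 8, rose in KO. Its level was 29.8, 29.9, 25.9 and 26.4 FPKM at 0 h. It was 51.3, 46.4, 56.2 and 54.5 FPKM at 24 h, and 52.7, 56.5, 39.9 and 50.8 FPKM at 48 h. All 8 KO libraries in palmitic acid were above all 4 at 0 h, by 0.88 ± 0.20 at 24 h (adjusted p = 0.00748) and 0.82 ± 0.20 at 48 h (adjusted p = 0.00789). Both calls held in all 8 fits with 1 library left out, and no exon of another gene is annotated opposite it. WT libraries were at 36.9, 20.5, 33.0 and 34.5 FPKM at 0 h and at 59.5, 39.8, 46.7 and 48.4 FPKM at 24 h, without overlap, for a difference of 0.65 ± 0.20 that did not pass (adjusted p = 0.0671). The other 12 tested eIF3 subunits were not called in any comparison (EIF3B, EIF3H and EIF3M had an unadjusted p under 0.05 in at least 1), and the median change of the 13 lay between -0.03 and 0.10 in the 4 comparisons with 0 h. Of all 17252 genes, 892 to 3748 had such a p by limma in single comparisons between times or genotypes. The number with it in at least 1 was not counted. EIF3M, an accessory subunit with a TOP start, went from 17.8 ± 6.16 to 35.0 ± 14.9 and 36.9 ± 14.8 FPKM in WT at 0 h, 24 h and 48 h, with adjusted p = 0.16 and 0.0803.

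**Figure D3:**
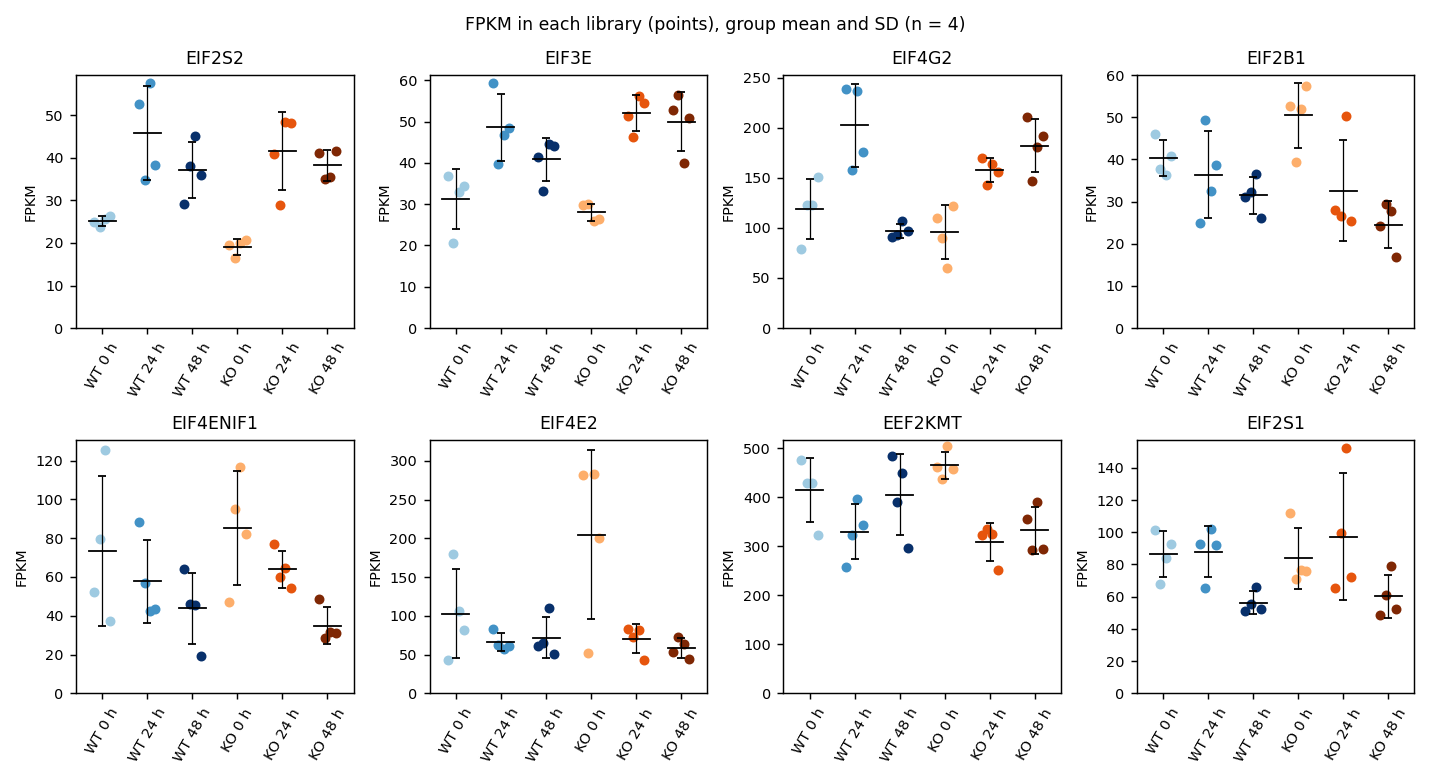
FPKM in each library (points), with the mean (bar) and SD of the 4 libraries of a group, for the 7 factors called in any comparison and for EIF2S1, which was not called. EIF2S2 and EIF3E sit above their 0 h level in KO at both later times, EIF4G2 averages 97.0 FPKM in WT and 182 FPKM in KO at 48 h, and the 0 h groups of EIF4E2 and EIF4ENIF1 spread widely.

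None of the 8 tested start codon and 43S factors was called in any comparison, and 5 (EIF1, EIF1AX, EIF1AD, EIF5 and EIF5B) had an unadjusted p under 0.05 in at least 1. In single comparisons between times or genotypes, 892 to 3748 of all 17252 genes had such a p by limma. How many had it in at least 1 was not counted. EIF5 was at 97.9, 133, 163 and 135 FPKM in WT at 0 h and 163, 162, 180 and 188 FPKM at 24 h. In KO it was at 138, 149, 129 and 83.3 FPKM at 0 h and 160, 235, 184 and 161 FPKM at 24 h, with no overlap. These differences were 0.41 ± 0.20 in WT (adjusted p = 0.313) and 0.58 ± 0.20 in KO (adjusted p = 0.091). EIF1, which guards start codon choice, was at 15.5 ± 10.7 FPKM in KO at 0 h and 35.9 ± 2.47 at 24 h, again without overlap or a call (1.42 ± 0.58, adjusted p = 0.184). EIF1AX, which acts beside eIF1, was higher in every WT library at 24 h than at 0 h (12.8 ± 4.43 and 27.9 ± 9.88 FPKM, adjusted p = 0.115).

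Among eIF4F and its regulators, factors were called in both directions. EIF4G2 (chr11:10797050-10809110, minus strand), also called DAP5, resembles the scaffold eIF4G but lacks the part that binds eIF4E, and serves initiation without the cap. WT libraries were at 78.7, 123, 123 and 151 FPKM at 0 h, at 239, 158, 237 and 176 FPKM at 24 h, and at 91.0, 93.2, 107 and 96.5 FPKM at 48 h. KO libraries were at 110, 90.0, 60.3 and 122 FPKM at 0 h, at 170, 143, 164 and 155 FPKM at 24 h, and at 210, 146, 181 and 192 FPKM at 48 h. Both genotypes were thus higher at 24 h without overlap, and only the KO libraries were still all above their 0 h level at 48 h. The change at 24 h was 0.78 ± 0.21 in WT (adjusted p = 0.0336) and 0.77 ± 0.21 in KO (adjusted p = 0.0297). At 48 h it was -0.26 ± 0.21 in WT (adjusted p = 0.565) and 0.96 ± 0.21 in KO (adjusted p = 0.00307).

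From 24 h to 48 h EIF4G2 fell in WT by 1.04 ± 0.21 on the log2 scale (adjusted p = 0.0436), the only factor called in that comparison, where 0.122% of all genes were called (0.0638% lower). The KO call at 48 h held in all 8 fits with 1 library left out. The 24 h calls were lost in 6 of 8 such fits in WT (adjusted p up to 0.137, without WT 0 h replicate 0) and 5 of 8 in KO (0.123, without KO 0 h replicate 2), and the WT fall in 7 of 8 (0.162, without WT 24 h replicate 2). The fall also missed the threshold without the filter on low genes and under median-of-ratios scaling (adjusted p up to 0.0541). CTR9, whose exons cover 134 bases on the opposite strand, differed by -1.52 ± 0.38 in KO at 48 h (adjusted p = 0.00966), opposite in sign to EIF4G2.

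EIF4E2 (chr2:232550052-232583644, plus strand), a cap-binding homologue of eIF4E that represses translation, fell in KO at 48 h. It was at 282, 52.2, 284 and 201 FPKM at 0 h and at 53.4, 73.3, 64.0 and 44.2 FPKM at 48 h, a difference of -1.55 ± 0.43 (adjusted p = 0.0218). The groups overlapped through KO 0 h replicate 1, at 52.2 FPKM, and the call was lost in 5 of 8 fits with 1 library left out (highest adjusted p = 0.0884) and after quantile normalization (-1.17, adjusted p = 0.0716). The antisense gene AC073254.1 shares 1194 exon bases with EIF4E2, averaged 807 FPKM and fell in the same comparison by 0.66 ± 0.14 on the log2 scale (adjusted p = 0.00254). Its part in the change of EIF4E2 was not tested.

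EIF4ENIF1 (chr22:31436977-31496108, minus strand), or 4E-T, which carries eIF4E into the nucleus and to P-bodies, fell as well in KO at 48 h. Its libraries gave 46.9, 94.9, 117 and 82.3 FPKM at 0 h and 48.9, 28.4, 31.4 and 31.1 FPKM at 48 h, so that 1 library of each group overlapped. The change was -1.23 ± 0.37 (adjusted p = 0.0329), lost in 6 of 8 fits with 1 library left out (highest adjusted p = 0.112) and after quantile normalization (-0.93, adjusted p = 0.109). Median-of-ratios scaling gave -1.01 and no call. Its antisense neighbour AL096701.3, sharing 364 exon bases, differed by -0.73 ± 0.80 (adjusted p = 0.662).

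EIF4E was not called in any comparison, with no unadjusted p under 0.05. Its values were widely spread, at 24.3, 43.4, 67.7 and 91.7 FPKM in WT and 70.6, 53.3, 18.3 and 24.4 FPKM in KO at 0 h, and lay closer together at 48 h, at 31.8 to 46.3 and 34.9 to 47.2 FPKM. EIF4EBP1, which binds and inhibits eIF4E until mTORC1 phosphorylates it, rested on a median of 7.23 fragments per library over its longest transcript. It was at 0, 18.8, 6.61 and 9.16 FPKM in WT at 0 h and at 14.2, 16.5, 14.9 and 10.8 FPKM at 48 h, a difference of 1.51 ± 0.89 (adjusted p = 0.377). EIF4B was at 177, 122, 182 and 180 FPKM in WT at 0 h, 168, 179, 262 and 219 FPKM at 24 h, and 151, 131, 164 and 115 FPKM at 48 h. All WT libraries at 48 h were below all at 24 h, with a difference of -0.55 ± 0.20 that was not called (adjusted p = 0.49), while in KO at 48 h EIF4B was at 241, 195, 177 and 143 FPKM. The antisense gene AC068888.1 shares 733 exon bases with EIF4B and averaged 198 FPKM. Its WT mean was 294 FPKM at 0 h, 153 at 24 h and 121 at 48 h, and its part was not tested.

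EIF5A, the factor carrying the hypusine residue, was among the steadiest. Its group means lay between 101 ± 10.8 FPKM (KO, 0 h) and 120 ± 15.3 FPKM (KO, 48 h), with changes from 0 h of 0.14 to 0.25 (each ± 0.17) and adjusted p of 0.423 or more. On the opposite strand, 241 of its exon bases overlap GPS2, whose mean went from 126 FPKM in WT at 0 h to 31.4 FPKM at 48 h.

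No elongation factor was called in any comparison, and EEF1B2, EEF1D, EEF1G and EEF2 had an unadjusted p under 0.05 in at least 1. Such a p was given by limma to 892 to 3748 of all 17252 genes in single comparisons between times or genotypes. How many had it in at least 1 was not counted. EEF1B2, the exchange factor for eEF1A, was at 120, 123, 72.3 and 122 FPKM in WT at 0 h and 172, 162, 141 and 128 FPKM at 24 h, without overlap. In KO it was at 111, 127, 102 and 105 FPKM at 0 h and at 214, 130, 196 and 137 FPKM at 48 h, again without overlap. The differences of 0.49 ± 0.19 (adjusted p = 0.194) and 0.57 ± 0.19 (adjusted p = 0.0616) did not pass. EEF1D, another subunit of that exchange complex, pointed the other way, at 78.3 ± 6.83 FPKM in KO at 0 h and 41.6 ± 18.7 at 48 h (-1.02 ± 0.33, adjusted p = 0.0504), and at 76.3 ± 31.9 and 35.9 ± 11.3 FPKM in WT at 0 h and 24 h (-1.02 ± 0.33, adjusted p = 0.0867). Its opposite strand carries AC067930.6 over 2934 exon bases, which fell by 1.201 ± 0.17 on the log2 scale in KO at 48 h (adjusted p = 4.2e-05), and the part of that gene was not tested.

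EEF1G, the structural subunit of the same complex, was at 96.4, 15.5, 133 and 194 FPKM in WT at 0 h and at 203, 172, 192 and 176 FPKM at 24 h. The ranges overlapped and the difference was 1.22 ± 0.51 (adjusted p = 0.22). EEF2, the translocase, was at 162, 101, 147 and 101 FPKM in WT at 0 h and at 92.5, 82.7, 132 and 98.5 FPKM at 48 h. In KO at 0 h 1 library was at 369 FPKM and the others at 92.6 to 150 FPKM, and at 48 h the 4 were at 80.5 to 122 FPKM (-0.60 ± 0.30, adjusted p = 0.253).

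Among the modifying enzymes, EEF2KMT (chr16:5084304-5097808, minus strand) fell in KO at 24 h. It was at 461, 438, 505 and 458 FPKM at 0 h and at 323, 336, 326 and 251 FPKM at 24 h, without overlap. The change was -0.60 ± 0.16 (adjusted p = 0.0274), lost in 4 of 8 fits with 1 library left out (highest adjusted p = 0.109, without KO 24 h replicate 3) and after quantile normalization (-0.27, adjusted p = 0.262). At 48 h KO libraries were at 356, 293, 390 and 294 FPKM, again all below 0 h, with -0.49 ± 0.16 just missing the threshold (adjusted p = 0.0546). WT was at 414 ± 64.9, 330 ± 56.9 and 405 ± 82.2 FPKM at 0 h, 24 h and 48 h (SD, n = 4). ALG1, whose exons cover 915 bases on the opposite strand, fell in KO at 24 h by 0.82 ± 0.15 on the log2 scale (adjusted p = 0.00128), and its part in the change of EEF2KMT was not tested.

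EEF2K was close to the limit of what these libraries could measure, with a median of 4.6 fragments over its longest transcript. It was at 0.345, 0, 0 and 1.14 FPKM in WT at 0 h and 8.14, 0.717, 0.973 and 2.61 FPKM at 48 h, a difference of 1.78 ± 0.71 (adjusted p = 0.154). Its antisense neighbour AC009034.1 shares 708 exon bases with it and averaged 147 FPKM.

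An overlap with exons of the opposite strand was annotated for 29 of the 56 tested factors. In KO at 48 h, the 3 factors called lower all had such an overlap, and of the 3 called higher EIF2S2 and EIF3E had none. The median change was -0.03 over the 29 and 0.39 over the other 27. Over all protein-coding genes tested, the medians were -0.05 for 5257 genes with an overlap and 0.29 for 6786 without. Of those with an overlap 172 were called higher and 516 lower, and of those without 329 higher and 129 lower. In the other 3 comparisons with 0 h the median was also lower with an overlap, for the factors and for all protein-coding genes. In WT from 24 h to 48 h the order was the other way for the factors, at -0.07 with an overlap and -0.13 without, against -0.02 and 0.04 over all protein-coding genes. These differences were not tested. Of the 11 factors that overlap a gene annotated as antisense, that gene had the higher mean level for 4: EIF4B, EIF4E2, EIF2B2 and EEF2K.

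No factor was called between KO and WT at any time. At 0 h, where 0.0985% of all genes were called, limma gave an unadjusted p under 0.05 for 3 factors, all higher in KO. At 24 h, with 0.0116% of all genes called, it did so for 2, EIF1 and EEF1D, and at 48 h, with 0.0638% called, for EIF4G2 alone. Over all 17252 genes it did so for 1194 at 0 h, 892 at 24 h and 1131 at 48 h. EIF4G2 at 48 h was higher in every KO library than in every WT library, 182 ± 26.8 against 97.0 ± 7.16 FPKM (SD, n = 4), as were 1.74% of all genes. The difference of 0.90 ± 0.21 had an unadjusted p of 0.000272 and an adjusted p of 0.156.

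The changes from 0 h, called responses here, were compared between genotypes by the interaction. No factor was called at 24 h, where 0% of all genes were called and limma gave 2 factors an unadjusted p under 0.05 (EIF1 and EIF4H). None was called at 48 h, where 0.0522% of all genes were called and the 2 factors under that p were EIF4G2 and EIF4A1. Of all 17252 genes, 950 at 24 h and 1139 at 48 h were under that p. For EIF4G2 the KO response at 48 h exceeded that of WT by 1.22 ± 0.29 (adjusted p = 0.27). The change from 24 h to 48 h, a comparison added after its values were seen, differed by 1.23 ± 0.29 (adjusted p = 0.571, with 0.0174% of all genes called). For EIF2S2 the difference of the responses at 48 h was 0.45 ± 0.30 (adjusted p = 0.839), for EIF3E 0.41 ± 0.28 (0.843) and for EIF2B1 -0.69 ± 0.35 (0.774). A call in KO and none in WT thus does not show a difference between genotypes for these genes, and the interaction does not show that they respond alike. Between 24 h and 48 h in KO no factor was called, where 0.516% of all genes were called, and 3 had an unadjusted p under 0.05, all lower at 48 h: EIF4ENIF1, EIF2S1 and EEF1D. Of all 17252 genes, 1604 had such a p by limma.

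**Figure D4:**
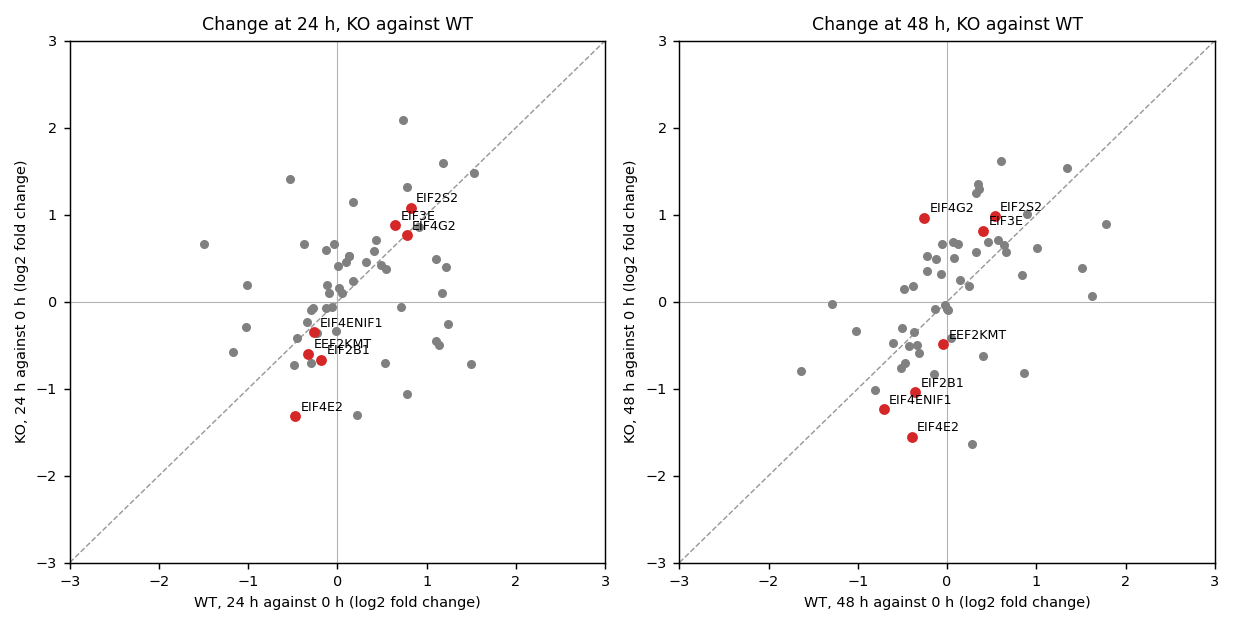
Log2 fold change from 0 h in KO (vertical) against that in WT (horizontal) for the 56 tested factors at 24 h and at 48 h; the dashed line marks equal change, and red points are the 7 factors called in any comparison. At 48 h EIF4G2 lies away from the line, at -0.26 in WT and 0.96 in KO, and no difference from the line was called.

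Genes that act on these factors were examined as lists. Of 9 eIF2 kinase and phosphatase genes, all tested, PPP1R15A, also called GADD34, which directs a phosphatase to eIF2, rose in all 4 comparisons with 0 h. It was at 4.16 to 8.02 FPKM in WT and 4.29 to 10.1 FPKM in KO at 0 h, and at 24.4 to 62.0 and 57.6 to 68.9 FPKM at 24 h. The change at 24 h was 2.84 ± 0.30 in WT (adjusted p = 1.6e-06) and 3.05 ± 0.30 in KO (adjusted p = 4.4e-07), and at 48 h 1.96 ± 0.30 and 2.22 ± 0.30. Its interaction was 0.21 ± 0.42 at 24 h (adjusted p = 0.964). PPP1CB, a catalytic subunit of that phosphatase, rose in WT at 24 h (1.37 ± 0.36, adjusted p = 0.0286) and in KO at 48 h (1.19 ± 0.36, adjusted p = 0.034). It was not called in WT at 48 h or KO at 24 h. Its means at 0 h, 24 h and 48 h were 3.44, 9.41 and 7.82 FPKM in WT and 4.68, 8.46 and 11.3 FPKM in KO. EIF2AK1, the heme-regulated eIF2 kinase, fell in KO at 48 h (-0.80 ± 0.13, adjusted p = 0.000109, and -0.34 ± 0.13 in WT, adjusted p = 0.123), with 532 exon bases opposite another gene. The other 6 genes, with EIF2AK3 (PERK) and EIF2AK4 (GCN2) among them, were not called.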

How the data were processed

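The authors deposited FPKM values for 24 libraries in 1 table of 58024 Ensembl gene rows. The submitters' processing notes name STAR, Cufflinks, Cuffdiff and the build GRCh38; versions, annotation and strand setting are not given in the sources used here. Depth was unknown and was estimated from the smallest steps of the values.

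IDs were matched without version to GENCODE 29 (57375 rows, 98.88%), and 45 rows of chromosome Y copies, all at 0, were dropped. The 17252 genes averaging 0.5 FPKM or more were fitted on the log2(FPKM + 0.5) scale in 1 limma 3.58.1 fit (R 4.3.3) of 6 group means with an intensity trend, two-sided, with Benjamini-Hochberg adjustment over all genes tested. Fold changes on this scale understate changes of low genes. The fit was also run on simulated data with the same setting of spread for all genes. That run does not show how the fit behaves at the spread of these libraries. Tables and plots used Python 3.11.15.

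Factors named by rule were those called in any comparison, the 6 with the highest means, and EIF2S1, EIF4E, EIF4EBP1, EEF2, EEF2K and EIF5A. Others named were chosen after their values were seen. Library values of the factors named by rule are printed for some groups only, and EIF5A is given by group means. The members and lists were chosen with earlier results of these data known. Alternatives were other pseudocounts and filters, median-of-ratios scaling, quantile normalization, a block on the replicate number, and leaving out each library.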

Additional observations from a re-analysis of the deposited data

Results flagged for a closer look

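A library stood apart from the other 3 of its group, with a gap to its neighbour above the 95% limit of Dixon's test for 4 values, in 6 of 102 groups of the 17 named factors; chance gives about 1 in 20. EIF2B1 was at 50.4 FPKM in KO 24 h replicate 2, with the nearest other library at 27.9 FPKM. EEF2KMT was at 251 FPKM in KO 24 h replicate 3 and the next lowest at 323 FPKM. EIF4ENIF1 was at 48.9 FPKM in KO 48 h replicate 0 and the next highest at 31.4 FPKM. EIF4B was at 122 FPKM in WT 0 h replicate 1, below 177 FPKM, and EEF1B2 at 72.3 FPKM in WT 0 h replicate 2, below 120 FPKM. EIF2S1 was at 112 FPKM in KO 0 h replicate 0, above 76.5 FPKM. The 6 flags fall on 6 different libraries.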

How the results depend on the processing

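Of 13 calls of single factors, 85 of 91 refits under other settings kept the call, 6 lost it and 0 reversed; with 1 library left out 67 of 104 kept it, 37 lost it and 0 reversed. Counts of factors called moved by 1.5 times or more in these cases. For WT at 24 h against 0 h the count was 4 after quantile normalization and 3 under median-of-ratios scaling and with a filter at 2 FPKM. For KO at 24 h against 0 h it was 6 after quantile normalization. For WT at 48 h against 0 h it was 4 under median-of-ratios scaling and 1 after quantile normalization. For WT at 48 h against 24 h it was 0 without a filter and 0 under median-of-ratios scaling. For KO against WT at 48 h it was 1 after quantile normalization. For KO at 48 h against 0 h, median-of-ratios scaling, quantile normalization and a filter at 2 FPKM each gave 9. With 1 library left out the count ranged from 0 to 2 for WT at 24 h, from 0 to 1 for WT at 48 h against 24 h, from 2 to 5 for KO at 24 h and from 4 to 6 for KO at 48 h, and was 0 throughout for the other comparisons. The cause of these moves was not tested. Rescaling also moved the calls over all genes, as given above for KO at 24 h and 48 h and WT at 48 h. Counts over all genes are not set beside the other counts of this paragraph. None of these moves is read as particular to the factors. With the replicate number as a block, KO at 48 h had 8 calls (3 higher, 5 lower), WT at 24 h had 2, WT at 48 h 0, WT at 48 h against 24 h 1 and KO at 24 h 4; the numbers do not pair the libraries, since over 60 same-numbered pairs the correlation of deviations was -0.125 to 0.144 and 7 of 24 libraries correlated best with their own number. Depth limits the factors under about 10 FPKM, where a few fragments set a value.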

Other observations

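Other parts of the translation apparatus were examined as lists. Of 16 genes of the mTORC1 and S6 kinase arm, none was called at 24 h or in WT at 48 h, with 3 (WT, 24 h), 2 (KO, 24 h) and 4 (WT, 48 h) at an unadjusted p under 0.05. Of all 17252 genes, 2733, 3075 and 3239 had such a p by limma in those comparisons. LARP1, which binds TOP mRNAs, and RPS6KB1, the S6 kinase, fell in KO at 48 h (-1.11 ± 0.32 and -1.58 ± 0.46, adjusted p = 0.0269 and 0.0301 by limma). In WT at 48 h they were at -0.90 ± 0.32 (adjusted p = 0.0965) and -0.01 ± 0.46 (adjusted p = 1). LARP1 was at 82.0 to 178 FPKM in KO at 0 h and 37.0 to 91.7 FPKM at 48 h, so its groups overlapped. RPS6KB1 averaged 13.9 FPKM in WT and 35.4 FPKM in KO at 0 h, 12.6 and 41.5 FPKM at 24 h, and 13.8 and 11.5 FPKM at 48 h. No gene of this list was called between genotypes or by the interaction. Of 15 tested termination, recycling and poly(A) factors, PAIP1, a partner of the poly(A)-binding protein, rose at 48 h in both genotypes (1.01 ± 0.27 in WT, adjusted p = 0.0266, and 1.02 ± 0.27 in KO, adjusted p = 0.017). GSPT1, the release factor eRF3a, and PABPC1, the main poly(A)-binding protein, fell in WT at 48 h (-1.26 ± 0.37, adjusted p = 0.0383, and -1.03 ± 0.24, adjusted p = 0.0108). In KO at 48 h GSPT1 had the opposite sign (0.71 ± 0.37, adjusted p = 0.27) and PABPC1 was at -0.27 ± 0.24 (adjusted p = 0.59). The GSPT1 response in KO exceeded that in WT by 1.96 ± 0.52 and was not called (adjusted p = 0.323).

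Of 20 cytosolic aminoacyl-tRNA synthetases, AARS, which charges alanine tRNA, rose in KO at 24 h, from 69.7 to 108 FPKM at 0 h to 137 to 189 FPKM (0.94 ± 0.20, adjusted p = 0.00467), and differed by 0.54 ± 0.20 in WT (adjusted p = 0.153). HARS, for histidine, fell at 48 h in WT (-0.80 ± 0.22, adjusted p = 0.0262) and in KO (-0.87 ± 0.22, adjusted p = 0.011), with 658 exon bases opposite other genes. None of 8 mitochondrial translation factors was called in the 4 comparisons with 0 h, in which at most 1 had an unadjusted p under 0.05. These calls were not refitted with libraries left out.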
